A study of Homo sapiens with 17 samples.

Results

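The RNA decay machinery of YB5 cells was followed by the mRNA levels of 48 listed genes, which encode the RNA exosome, the CCR4-NOT and PAN2-PAN3 deadenylases with their adaptors, the decapping enzymes and the factors of nonsense-mediated decay. The genes were taken by name and matched to the count table through their gene identifiers, and all 48 were found among the 19141 genes counted, of which 19080 had a symbol. All 48 passed the filter on low counts in each fit, and the lowest count of any of them in any library was 29. YB5 is a derivative of the SW48 colon cancer line that carries a silenced GFP gene behind a methylated viral promoter, and the study asked which genes respond over time to toyocamycin, an adenosine analog. Cells received toyocamycin at 250 nM or its vehicle DMSO, and polyA RNA was sequenced in 17 libraries, 8 of DMSO and 9 of toyocamycin. Each treatment was covered by 2 libraries of 2 h, a single library of 24 h and of 48 h, and 3 libraries of 72 h, whereas 10 h had 1 DMSO library against 2 toyocamycin libraries. The last time is 72 h in the labels and in the count table, while the paper's text gives a later hour, so the length of that treatment is uncertain.

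A messenger RNA is usually degraded after its polyA tail has been shortened by the PAN2-PAN3 and CCR4-NOT deadenylases. The body is then destroyed either from the 5′ end, once DCP2 has removed the cap and XRN1 has entered, or from the 3′ end by the exosome, a ring of EXOSC subunits to which the nucleases DIS3, DIS3L or EXOSC10 bind. In the nucleus, MTREX and its partner proteins feed RNA into the exosome, and in the cytoplasm UPF1 and the SMG proteins direct transcripts with early stop codons to decay.

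Library totals ran from 8735465 to 22121364 counts. Replicate 2 of toyocamycin at 10 h had the lowest total, stood apart from the other 16 libraries with 18654 genes detected against 13434 to 16549, and had the highest share of mitochondrially encoded counts, 6.55%. The labels place replicate 2 of both treatments at 2 h and at 10 h in a second batch. Of 12 colon epithelium markers, 7 were above 1 CPM in all DMSO libraries, among them EPCAM, CDH1 and CDX2, and 4 were under 1 CPM in all of them (KRT20, CDX1, LGALS4 and GPA33). The 12 summed to 2340 to 7620 CPM on DMSO and 390 to 4540 CPM on toyocamycin, with CDH1 as low as 22.4 CPM and CDX2 as high as 791 CPM there. The summed markers of other cell types were low, at 0.505 to 15.4 CPM on DMSO and 0.661 to 23.2 CPM on toyocamycin for 6 fibroblast genes, 0.101 to 0.759 CPM and 0.507 to 14.6 CPM for 6 leukocyte genes, and 0 to 0.804 CPM and 0.271 to 15.2 CPM for 4 endothelial genes. The part of these differences in the results was not tested. Of the 48 genes, 17 share ground with a counted gene on the other strand, and 3 of these (EXOSC3, EXOSC7 and RBM7) also with one on their own strand. The strand setting of the counting is not given in the sources used here, so reads of such pairs may not be separable.

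Together, the 48 genes held a smaller share of all counts on toyocamycin than on DMSO, and the share was lowest at 10 h. On DMSO they took 0.265% to 0.329% of a library's counts. On toyocamycin they took 0.269% and 0.258% after 2 h, 0.142% and 0.148% after 10 h, 0.17% after 24 h, 0.228% after 48 h, and 0.246%, 0.226% and 0.241% after 72 h. These shares are counts before any scaling, so they also move with the most abundant other genes. All values come from bulk RNA, in which fewer cells of a kind and less RNA per cell cannot be told apart.

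At 2 h of toyocamycin, 7 of the 48 genes were lower than on DMSO and 0 were higher, by the quasi-likelihood test of edgeR, with p-values adjusted by Benjamini-Hochberg over all 14491 genes tested and calls under 0.1. The share that fell was 14.6% of the 48, where 8.42% of all genes tested fell, 0.518% rose and 8.94% did either. Among genes with at least 10 counts in every library these shares were 11.3% and 0.529%, and the same 7 of the 48 were called. Both treated libraries lay above both controls in 6 of the 48 and below them in 18, where 16.7% and 20.3% of all genes did so (37% in all). At an unadjusted p under 0.05 in the edgeR test there were 11 lower and 0 higher genes. The share of all genes at that threshold was not counted, so these 2 counts have no background to be set against. The DESeq2 Wald test also called 7 lower and 0 higher, where 7.97% and 0.614% of all genes were. The 7 genes came from 4 of the 5 functional groups, since the exosome had 0 of its 12. The median log2 fold change of the 48 was -0.12, against 0.02 for all genes. Levels below are CPM scaled with edgeR's TMM factors, and log2 fold changes are given with their standard error.

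The largest early fall was that of RBM7, an RNA-binding protein of the nuclear exosome targeting (NEXT) complex, on GRCh38 chr11:114400030-114414203 (plus strand). It measured 8.16 and 12.4 CPM on DMSO and 2.28 and 2.71 CPM on toyocamycin. Both treated libraries lay below both controls, with a log2 fold change of -2.04 ± 0.29 (edgeR adjusted p = 0.000386, n = 2 per treatment). SMG8, a regulator of the SMG1 kinase (chr17:59209400-59215239, plus strand), measured 31.4 and 20.9 CPM on DMSO and 9.28 and 7.04 CPM on toyocamycin, a log2 fold change of -1.68 ± 0.20 (edgeR adjusted p = 9.8e-05). TOB2, an adaptor that brings the deadenylases to their targets (chr22:41433494-41446801, minus strand), measured 150.3 and 170.4 CPM on DMSO and 59.9 and 62.9 CPM on toyocamycin, a log2 fold change of -1.38 ± 0.16 (edgeR adjusted p = 6.4e-05). In neither gene did the treatments overlap. TOB1, the paralog of TOB2, measured 23.6 and 32.1 CPM against 14.2 and 18.5 CPM, with a log2 fold change of -0.77 ± 0.20 (edgeR adjusted p = 0.0308).

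The decapping enzyme and its activator were also among the early fallers. DCP1A, which activates DCP2 (chr3:53283429-53347586, minus strand), measured 35.2 and 42.7 CPM on DMSO and 17.2 and 19.7 CPM on toyocamycin, a log2 fold change of -1.08 ± 0.17 (edgeR adjusted p = 0.000906). DCP2, the enzyme itself, measured 19.2 and 25.5 CPM against 12.1 and 13.2 CPM, a log2 fold change of -0.82 ± 0.21 (edgeR adjusted p = 0.0267). CNOT4, a ubiquitin ligase that binds the CCR4-NOT complex, measured 24.99 and 30.5 CPM against 14.8 and 16.1 CPM, a log2 fold change of -0.85 ± 0.16 (edgeR adjusted p = 0.00391). In these 3 genes, too, both treated libraries were below both controls. The calls of TOB1 and DCP2 rested on single libraries. Without replicate 2 of DMSO their adjusted p values were 0.256 and 0.211, and without replicate 1 of toyocamycin 0.26 and 0.167.

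The 2 libraries of a treatment at 2 h came from different batches, and libraries with 1 replicate number shared a batch. With the replicate as a block, 13 genes were called lower and 1 higher, where 18.7% and 8.72% of the genes in that fit were called. The additional lower genes were DIS3, CNOT2, CNOT3, PAN3, DCP1B and EDC3, and the higher gene was UPF3B, an NMD factor of the exon junction complex, at 0.33 (edgeR adjusted p = 0.0737). With scaling on the 13 mitochondrially encoded genes, only RBM7 of the 48 was called lower, where 0.6% of all genes were. The other 6 early fallers kept their negative sign.

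**Figure D1:**
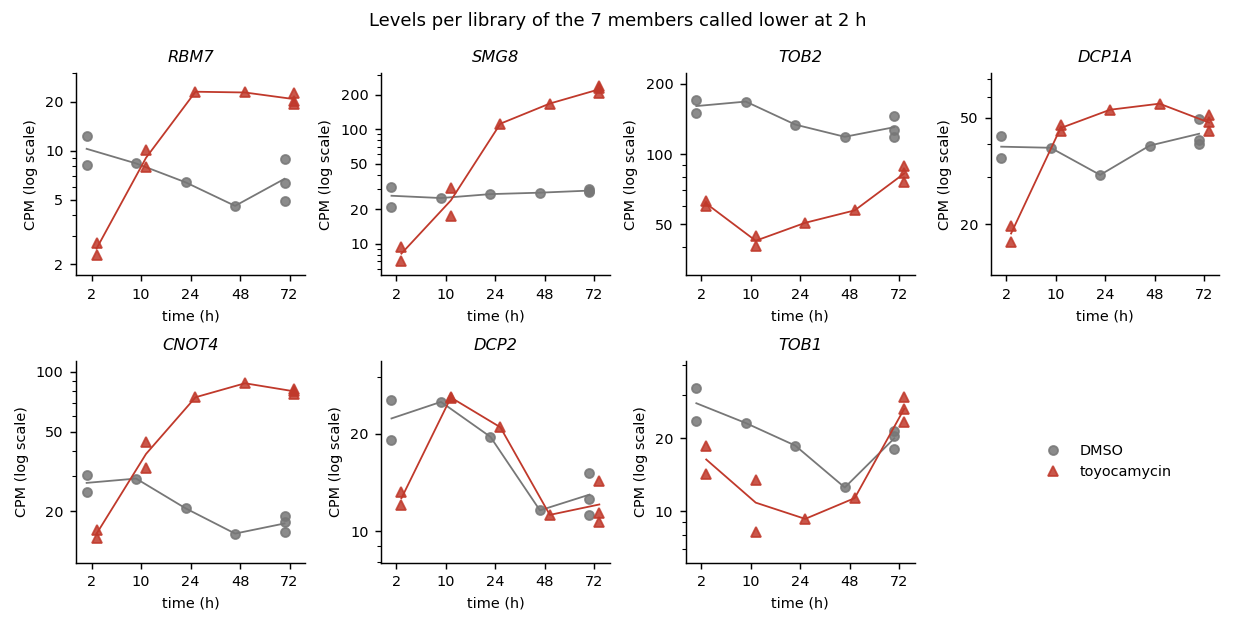
TMM-scaled CPM (log axis) of the 7 genes called lower at 2 h, by time in hours (evenly spaced, not to scale), with grey circles for DMSO libraries, red triangles for toyocamycin libraries and lines through group means. At 2 h both treated libraries lie below both controls in every panel, while at 72 h SMG8 stands at 205.4 to 236.8 CPM on toyocamycin against 28.3 to 29.9 CPM on DMSO.

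Upstream sequence was looked at for the early fallers, because these genes were lower together at the first time measured. RefSeq (GRCh38.p14) gave an entry for 42 of the 48 genes and for 6 of the 7 early fallers. The 250 bases before the annotated start are printed for the 3 early fallers with an entry and the largest fall, 5′ to 3′ on the gene's strand. Capitals mark TGACG (a short core bound by CREB and ATF proteins), CCAAT, or GGGCGG (the GC box bound by SP1) on either strand, with no overlap between them in these windows. RBM7 is chr11:114400416-114400665 on the plus strand and lies inside the gene as the GENCODE annotation draws it. TOB2 is chr22:41446802-41447051 on the minus strand, and DCP1A is chr3:53347544-53347793 on the minus strand. The last bases of the DCP1A window, with its last GC box, also lie inside the gene in that annotation. So do parts of the windows of CNOT4 and DCP2, which are not printed.
RBM7: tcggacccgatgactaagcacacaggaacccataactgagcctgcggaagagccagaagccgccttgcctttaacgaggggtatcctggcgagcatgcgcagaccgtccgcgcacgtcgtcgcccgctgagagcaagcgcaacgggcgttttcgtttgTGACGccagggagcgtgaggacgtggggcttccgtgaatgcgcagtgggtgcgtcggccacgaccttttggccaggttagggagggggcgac
TOB2: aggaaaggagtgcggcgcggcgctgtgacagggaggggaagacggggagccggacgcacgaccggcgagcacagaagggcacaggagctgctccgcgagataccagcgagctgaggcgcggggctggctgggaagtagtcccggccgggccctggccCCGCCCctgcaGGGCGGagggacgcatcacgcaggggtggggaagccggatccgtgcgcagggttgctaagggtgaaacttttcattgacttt
DCP1A: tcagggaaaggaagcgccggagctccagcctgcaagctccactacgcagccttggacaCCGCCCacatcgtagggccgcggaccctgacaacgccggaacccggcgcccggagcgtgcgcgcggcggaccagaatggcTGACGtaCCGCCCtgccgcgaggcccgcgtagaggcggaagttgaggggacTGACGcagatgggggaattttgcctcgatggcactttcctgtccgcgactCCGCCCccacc
The window of RBM7 held 1 TGACG and 0 GC boxes, that of TOB2 held 2 GC boxes, and that of DCP1A held 2 TGACG and 3 GC boxes. Of the 6 early fallers with an entry, 4 held a GC box (TOB2, DCP1A, CNOT4 and DCP2), 2 held TGACG and 1 held CCAAT. The same letters were found in other members: GGGCGG was in 31 of the 42 windows (73.8%) against 42.3% of 27305 RefSeq promoters, TGACG in 33.3% against 21.7%, CCAAT in 40.5% against 33%, and TATAAA in 2.38% against 11.1%. The 27305 promoters were not limited to genes expressed in these cells, whereas the 48 genes all passed the filter on low counts. These shares therefore compare unlike sets. A match is a description of letters, not a site.

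At 10 h the fall was broad. Of the 48 genes, 29 were lower, 3 were higher and 16 did not pass the test, where 24.4% of the 16521 genes tested fell and 20.4% rose. The share of the 48 that fell was 60.4%. The median log2 fold change of the 48 was -1.004 against 0.42 for all genes. Replicate 2 of toyocamycin detected 18654 genes, against 14404 in replicate 1 and 14021 in the DMSO library. The comparison was therefore repeated among the 10112 genes with at least 10 counts in every library. There 29 of the 48 fell and 6 rose, against 34.4% and 28.7% of genes, with medians of -0.89 and -0.08. Within the second batch alone, without replicate 1 of toyocamycin, 33 genes were lower and 2 higher, against 27% and 39.1% of genes. That comparison has 1 library per treatment, and its spread comes from the other groups. The comparison without replicate 2 of toyocamycin, given next, has the same limit. It also sets a treated library of the first batch against a DMSO library of the second. Treatment and batch cannot be told apart there, so its counts are no check on the effect of treatment. Without replicate 2, the library that stands apart, 29 were lower and 6 higher, against 28% and 24% of genes.

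The largest falls at 10 h came from several of the groups. EXOSC2, a cap subunit of the exosome ring, measured 52.2 CPM in the DMSO library and 12.1 and 12.5 CPM on toyocamycin, a log2 fold change of -2.09 ± 0.22 (edgeR adjusted p = 4.7e-06). MTREX, the helicase that unwinds RNA for the nuclear exosome, measured 66.2 CPM against 11.4 and 20.1 CPM, a log2 fold change of -2.08 ± 0.29 (edgeR adjusted p = 4.9e-05). SMG9, the partner of SMG8, measured 22.3 CPM against 3.71 and 7.18 CPM, a log2 fold change of -2.07 ± 0.31 (edgeR adjusted p = 0.000107). TOB2 was lower again, at 167.6 CPM against 44.8 and 40.5 CPM (-1.97 ± 0.21). In all 4 the treated libraries were below the single DMSO library. The other falls past -1.9 were those of CNOT3, a CCR4-NOT subunit (-1.94), and EDC4, a scaffold of decapping (-1.91). By group, 7 of 12 exosome genes, 3 of 4 nuclear adaptors, 11 of 16 deadenylation genes, 4 of 7 decapping genes and 4 of 9 NMD genes fell.

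Of the 3 genes called higher at 10 h, EXOSC5 and EXOSC6 are ring subunits of the exosome and LSM1 is part of a ring that binds deadenylated mRNA. EXOSC5 rose by 0.64 ± 0.23 and LSM1 by 0.69 ± 0.25 on the log2 scale (edgeR adjusted p = 0.0442 and 0.0424), and both turned negative under mitochondrial scaling. EXOSC6 measured 60.4 CPM on DMSO and 201.0 and 70.3 CPM on toyocamycin, so its 2 treated libraries differed from each other more than replicate 2 differed from DMSO, and it was not called in the second batch alone. Of the 7 early fallers, only TOB1 and TOB2 were called lower at 10 h. The other 5 (RBM7, CNOT4, DCP1A, DCP2 and SMG8) had log2 fold changes between -0.06 and 0.41 and did not pass the test. With batch as a term SMG8 was called lower, and CNOT4 was called higher without replicate 2 of toyocamycin, among genes with at least 10 counts in every library, and with DESeq2's size factors or Wald test. The value of CNOT4 turned negative with total counts and with mitochondrial scaling, and that of SMG8 turned positive with DESeq2's size factors.

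**Figure D2:**
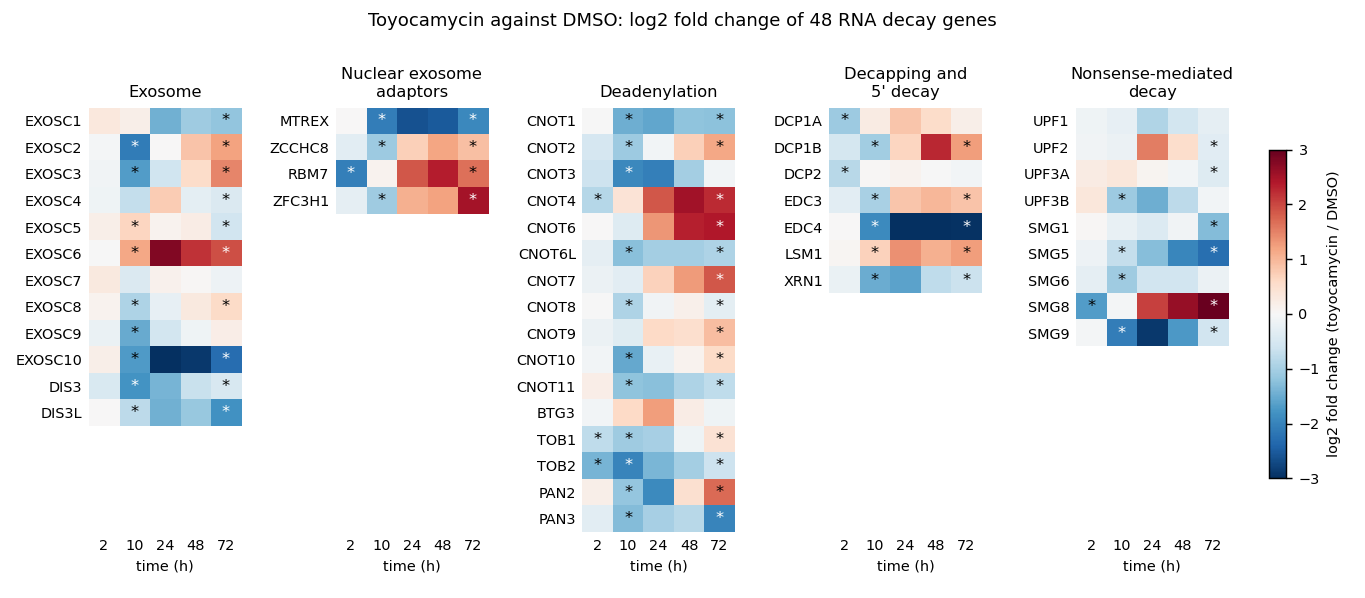
Colour shows the log2 fold change of toyocamycin against DMSO (red higher, blue lower, limited to ±3) for the 48 genes in 5 functional groups at 5 times, and asterisks mark genes past the test at 2, 10 and 72 h (24 and 48 h have no test). Asterisks at 2 h mark 7 genes, all blue, and at 72 h they mark 19 red and 20 blue genes.

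At 24 and 48 h there was 1 library per treatment and no test, so genes were counted past a 2-fold difference. At 24 h, 9 of the 48 genes were higher and 16 lower past 2-fold, where 29.7% and 27.8% of all genes were. At 48 h, 11 were higher and 11 lower, where 38.1% and 29.9% of all genes were. The median log2 fold change of the 48 moved from -0.24 at 24 h to 0.01 at 48 h. Past 2-fold in the same direction at 24, 48 and 72 h were 7 genes that were higher (EXOSC6, RBM7, ZFC3H1, CNOT4, CNOT6, LSM1 and SMG8) and 7 that were lower (EXOSC1, EXOSC10, DIS3L, MTREX, CNOT1, EDC4 and SMG5), where 21.8% of all genes were higher and 16.6% lower at all 3 times. EXOSC10, MTREX, CNOT1 and EDC4 were past 2-fold lower at 10 h as well. PAN2, the catalytic subunit of PAN2-PAN3, changed sides: it measured 10.8 CPM on DMSO and 2.82 CPM on toyocamycin at 24 h, and 8.13 and 11.1 CPM at 48 h.

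At 72 h, 19 of the 48 genes were higher, 20 lower and 9 not called. In all genes tested 47% rose and 41.9% fell, so the 81.2% of the 48 that were called lies below the 88.8% of all genes. In 39 of the 48 the 3 treated libraries did not overlap the 3 controls (19 above and 20 below), where 45.8% of all genes lay above and 41.8% below (87.6% in all). The median log2 fold change was -0.11 against 0.18 for all genes. The split depended on the scaling. It was 21 higher and 13 lower with DESeq2's size factors, where 51.4% and 37.1% of all genes were. It was 16 and 29 with total counts (39% and 50.4% of all genes) and 6 and 29 with mitochondrial scaling (29% and 50.8%). These scalings moved the median of all genes to 0.50, -0.42 and -0.89, and the median of the 48 stayed 0.28 to 0.31 below that of all genes in each (differences of -0.28, -0.29 and -0.31). Among genes with at least 10 counts in every library 21 of the 48 rose and 14 fell, against 41.8% and 46.3% of genes. There the median of the 48 was 0.18 and that of all genes -0.12, so the sign of that difference turned with the filter. EXOSC8, CNOT10 and TOB1 changed sign with total counts, these 3 and ZCCHC8, CNOT9 and EDC3 with mitochondrial scaling, and CNOT8 with DESeq2's size factors. The calls lost with DESeq2's size factors were the lower calls of EXOSC4, DIS3, CNOT8, XRN1, UPF2, UPF3A and SMG9. Mitochondrial scaling also left RBM7, EXOSC2, EXOSC3, CNOT2, PAN2, DCP1B and LSM1 positive but not called.

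**Figure D3:**
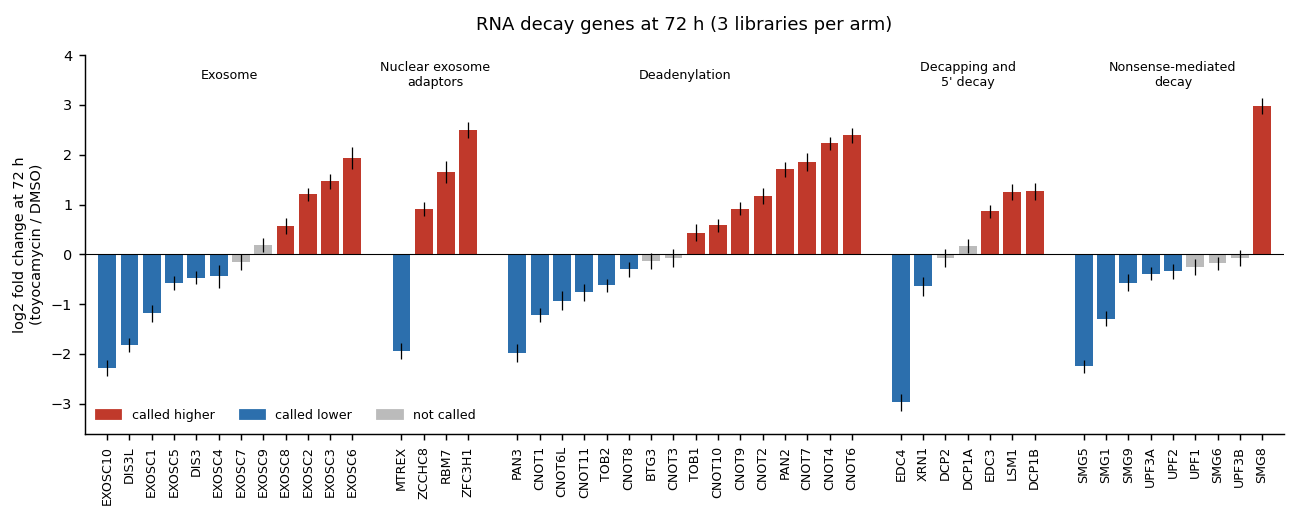
Bars show the log2 fold change of toyocamycin against DMSO at 72 h for the 48 genes, ordered by value within functional group, with error bars of 1 standard error of the edgeR fit. Each group holds genes on both sides of 0, from EDC4 at -2.97 to SMG8 at 2.97.

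Within the exosome, 4 genes rose, 6 fell and 2 did not pass the test. Of the subunits of the ring, EXOSC6 measured 139.0, 127.3 and 102.7 CPM on DMSO and 438.7, 444.6 and 496.9 CPM on toyocamycin, a log2 fold change of 1.94 ± 0.22 (edgeR adjusted p = 5.1e-07). EXOSC3, a cap subunit, measured 19.9, 17.7 and 13.4 CPM against 49.1, 46.0 and 42.2 CPM (1.46 ± 0.16), and EXOSC2 rose by 1.21. EXOSC1, the other cap subunit, went down, at 18.0, 23.3 and 19.0 CPM on DMSO and 9.04, 8.71 and 8.17 CPM on toyocamycin (-1.19 ± 0.18). All 3 catalytic genes fell. EXOSC10, the nuclear 3′ exonuclease, measured 48.7, 52.3 and 59.4 CPM against 8.35, 12.2 and 11.7 CPM, a log2 fold change of -2.27 ± 0.16 (edgeR adjusted p = 2.7e-09). DIS3L, the cytoplasmic exonuclease, measured 46.9, 51.6 and 56.8 CPM against 13.96, 12.7 and 16.2 CPM (-1.82 ± 0.14), and DIS3, the processive nuclease of the nuclear exosome, had -0.47 ± 0.13. In each of these genes every treated library lay on 1 side of every control.

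Among the nuclear adaptors, 3 rose and MTREX fell. ZFC3H1, the zinc finger scaffold that links MTREX to polyadenylated nuclear RNA, measured 20.1, 14.2 and 21.1 CPM on DMSO and 93.7, 106.6 and 106.1 CPM on toyocamycin, a log2 fold change of 2.50 ± 0.16 (edgeR adjusted p = 6.3e-10). RBM7 measured 6.29, 4.92 and 8.93 CPM against 22.7, 20.4 and 19.3 CPM (1.66 ± 0.22), and ZCCHC8, the scaffold of the NEXT complex, rose by 0.90. MTREX measured 59.9, 58.2 and 72.8 CPM against 16.4, 15.7 and 16.5 CPM, a log2 fold change of -1.94 ± 0.16 (edgeR adjusted p = 1.9e-08). The helicase was therefore below all of its controls while its 3 partners were above theirs.

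Of the 16 deadenylation genes, 8 rose, 6 fell and 2 did not pass the test. The catalytic CNOT6 measured 58.4, 54.2 and 68.7 CPM on DMSO and 346.4, 300.3 and 284.3 CPM on toyocamycin, a log2 fold change of 2.39 ± 0.15 (edgeR adjusted p = 4.7e-10). CNOT4 measured 15.7, 17.6 and 18.9 CPM against 82.2, 77.2 and 79.8 CPM (2.23 ± 0.14). CNOT7, a second deadenylase of the complex, measured 64.7, 59.6 and 75.9 CPM against 268.3, 219.6 and 219.4 CPM (1.85 ± 0.18). None of these 3 overlapped between treatments. CNOT1, the scaffold on which the complex is built, fell from 268.4, 272.5 and 311.6 CPM to 111.3, 115.2 and 130.6 CPM (-1.22 ± 0.14). CNOT6L, the paralog of CNOT6, fell from 55.3, 46.4 and 63.0 CPM to 31.3, 27.1 and 26.3 CPM (-0.93 ± 0.18). The subunits of the other deadenylase parted as well. PAN2 measured 7.28, 8.69 and 7.81 CPM against 23.9, 24.4 and 27.8 CPM (1.71 ± 0.15), and PAN3, its RNA-binding partner, 27.4, 25.2 and 36.7 CPM against 6.39, 7.97 and 7.73 CPM (-1.98 ± 0.18).

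Of the 7 decapping and 5′ decay genes, 3 rose, 2 fell and 2 did not pass the test. EDC4 had the largest fall of the 48 genes at 72 h, from 106.8, 102.7 and 84.9 CPM on DMSO to 14.6, 9.91 and 12.3 CPM on toyocamycin, a log2 fold change of -2.97 ± 0.17 (edgeR adjusted p = 2.7e-10). DCP1B, a paralog of DCP1A, rose from 8.42, 8.50 and 9.23 CPM to 21.5, 20.1 and 19.8 CPM (1.26 ± 0.17), LSM1 by 1.24 and EDC3, another decapping enhancer, by 0.86. XRN1, the 5′ exonuclease, had -0.64 ± 0.19. DCP2 was 12.5, 11.2 and 15.2 CPM on DMSO and 14.3, 10.7 and 11.4 CPM on toyocamycin, and these ranges overlap.

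In the NMD group, SMG8 rose, 5 genes fell and 3 did not pass the test. SMG8 had the largest rise of the 48 genes, from 29.9, 28.8 and 28.3 CPM on DMSO to 236.8, 226.5 and 205.4 CPM on toyocamycin, a log2 fold change of 2.97 ± 0.16 (edgeR adjusted p = 1.1e-10). SMG5, which helps to remove phosphate from UPF1, fell from 67.8, 61.0 and 56.2 CPM to 13.4, 11.7 and 13.0 CPM, a log2 fold change of -2.25 ± 0.14 (edgeR adjusted p = 4.0e-10). SMG1, the kinase of UPF1, fell from 99.3, 93.2 and 116.9 CPM to 44.2, 38.4 and 40.5 CPM (-1.30 ± 0.15). SMG1 has near-identical pseudogene copies, so its counts are uncertain. SMG9, UPF2 and UPF3A were lower by smaller amounts (-0.57, -0.34 and -0.39), and UPF1, UPF3B and SMG6 were not called. Per kilobase of the canonical transcript, UPF1 and EXOSC5 were the highest of the 48 on DMSO at 72 h (52.9 ± 7.20 and 51.4 ± 7.19 CPM per kilobase, SD, n = 3) and did not differ beyond their spread, whereas EXOSC6, EXOSC2 and SMG8 led on toyocamycin with 89.1 ± 6.21, 72.4 ± 3.70 and 69.2 ± 4.98 CPM per kilobase.

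Ratios of paralogs were compared within each library, since they do not depend on the scaling. At 72 h the log2 ratio of CNOT6 to CNOT6L was 0.14 ± 0.07 (SD, n = 3) on DMSO and 3.46 ± 0.02 on toyocamycin. CNOT7 to CNOT8 went from 0.70 ± 0.11 to 2.84 ± 0.10, and DIS3 to DIS3L from 0.24 ± 0.08 to 1.60 ± 0.06. TOB1 to TOB2 went from -2.70 ± 0.21 to -1.65 ± 0.25. DCP1A to DCP1B moved the other way, from 2.31 ± 0.10 to 1.22 ± 0.07, and UPF3A to UPF3B from 1.54 ± 0.02 to 1.21 ± 0.07. All 6 ratios were without overlap between treatments, and each gave p = 0.1 in a two-sided exact permutation test (adjusted p = 0.1 over the 6 pairs), the smallest that 3 against 3 libraries can give. Of all single genes tested, 87.6% did not overlap at 72 h either. Ratios of other gene pairs were not counted, so the 6 cannot be called particular to paralogs. At 2 h the differences were smaller, between -0.54 for DCP1A to DCP1B and 0.62 for TOB1 to TOB2. The 2 treatments overlapped only for CNOT7 to CNOT8 (p = 1), and for the other 5 the exact permutation p was 0.333, the smallest that 2 against 2 can give (adjusted p = 0.4).

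Ratios between partners in 1 complex are given without a test, since these 7 pairs were chosen after their values were seen. At 72 h the log2 ratio of PAN2 to PAN3 was 3.67 higher on toyocamycin than on DMSO, that of RBM7 to MTREX 3.63, that of SMG8 to SMG9 3.56, that of EXOSC6 to EXOSC10 4.23 and that of EDC3 to EDC4 3.84. ZCCHC8 to MTREX and CNOT7 to CNOT1 were higher by 2.84 and 3.08. None of the 7 overlapped between treatments, but the pairs were chosen on such values, so this is no test of them. At 2 h the ratios of RBM7 to MTREX and of SMG8 to SMG9 lay on the other side, at -2.01 and -1.61.

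**Figure D4:**
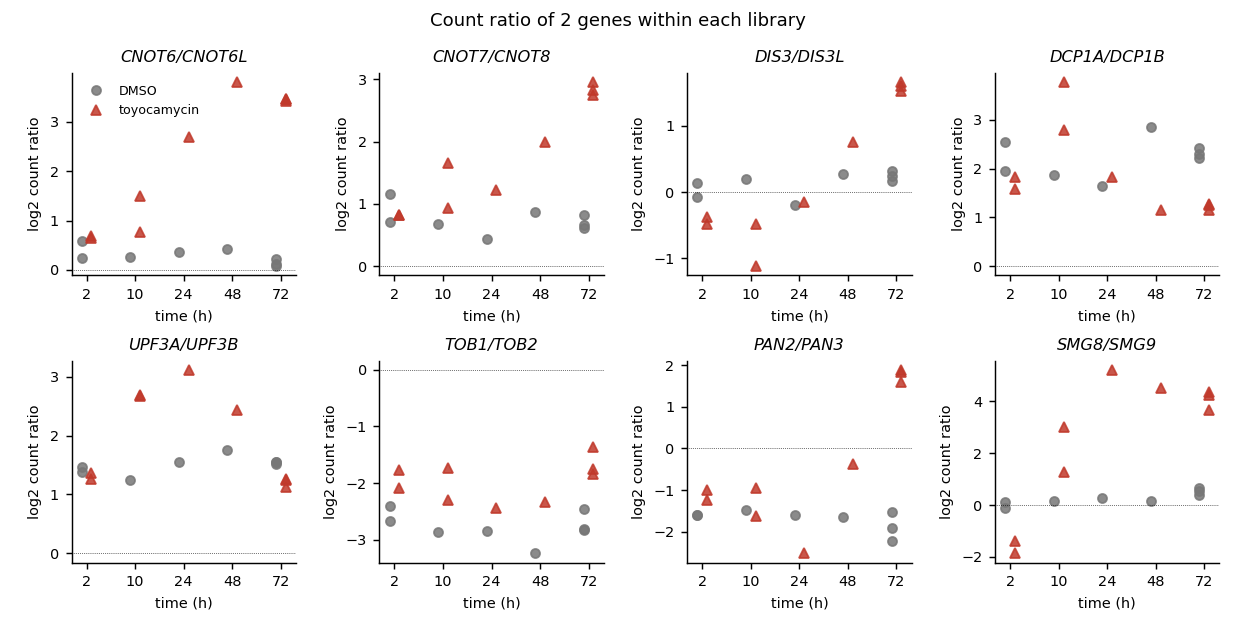
Each point is the log2 ratio of the counts of 2 genes in 1 library, with grey circles for DMSO and red triangles for toyocamycin, by time in hours (evenly spaced, not to scale). At 72 h the 3 treated libraries lie above the 3 controls for 6 of the 8 pairs and below them for DCP1A/DCP1B and UPF3A/UPF3B. The pairs PAN2/PAN3 and SMG8/SMG9 were chosen after their values were seen.

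The early and late effects were set against each other in the same fit. The effect at 72 h was higher than that at 2 h for 21 of the 48 genes and lower for 14, where it was higher for 38% and lower for 38.1% of all genes (76.1% in all). The split was 25 and 11 with DESeq2's size factors, where 42% and 34.5% of all genes were higher and lower. It was 18 and 24 with total counts (31.2% and 45.7% of all genes) and 5 and 16 with mitochondrial scaling (19.4% and 40.5%). Of the 7 genes that fell at 2 h, RBM7, CNOT4, TOB1 and SMG8 were above DMSO at 72 h, and 739 of the 1220 genes that fell at 2 h (60.6%, or 5.1% of all genes tested) did the same. TOB1 turned negative at 72 h with total counts and with mitochondrial scaling. TOB2 stayed lower (146.0, 126.7 and 118.1 CPM on DMSO, 75.7, 88.9 and 83.2 CPM on toyocamycin, -0.62 ± 0.13), and DCP1A and DCP2 were not called. Of the 29 genes lower at 10 h, 14 were lower, 11 higher and 4 not called at 72 h. Of all 4033 genes lower at 10 h, 64.2% were lower and 24.1% higher at 72 h. EXOSC7, BTG3 and UPF1 were called at none of 2, 10 and 72 h.

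DMSO cultures themselves changed between 2 and 72 h, with 5 of the 48 genes higher (EXOSC4, EXOSC5, EXOSC7, ZCCHC8 and BTG3) and 5 lower (CNOT4, CNOT6, TOB1, DCP2 and SMG5), where 10.2% and 11.4% of all genes were (21.6% in all). The largest were BTG3, an antiproliferative adaptor of the deadenylases, at 0.91 and DCP2 at -0.78. CNOT4 and CNOT6 fell on DMSO by 0.67 and 0.42 on the log2 scale. One of the 2 DMSO libraries of 2 h came from the second batch and all those of 72 h from the first. Without that library, which leaves 1 at 2 h, the median log2 fold change of the 48 was 0.01, against 0 for all genes. With each DMSO library of 72 h left out in turn, 3 to 6 genes were higher and 2 to 5 lower. In those fits 6.79% to 9.9% of all genes were higher and 6.38% to 10.7% lower. Whether batch had a part in these changes was not tested.

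The number of exons differed between rising and falling genes at 72 h, with ranges that overlap. The 19 genes that rose had a median of 9 exons in the canonical transcript (1 to 35), and the 20 that fell had 18 (2 to 63). Across the 48 genes the Spearman correlation of exon number with the log2 fold change was -0.395 (Pearson -0.376), and across 14462 genes tested it was -0.302 (Pearson -0.180). Genes are not independent replicates, since they share the libraries and their depth, so these are descriptions. The intronless EXOSC6 and the 4-exon SMG8 were among the largest rises, while ZFC3H1 with 35 exons and PAN2 with 26 rose as well. The 7 early fallers had a median of 5 exons (2 to 12) against 12 for the other 41 genes and 9 for all genes tested. The Spearman correlation at 2 h was 0.108 over the 48 and 0.027 over all genes. The GC content of the transcript was more weakly related to the change at 72 h, at -0.205 over the 48 genes and -0.032 over all genes.

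**Figure D5:**
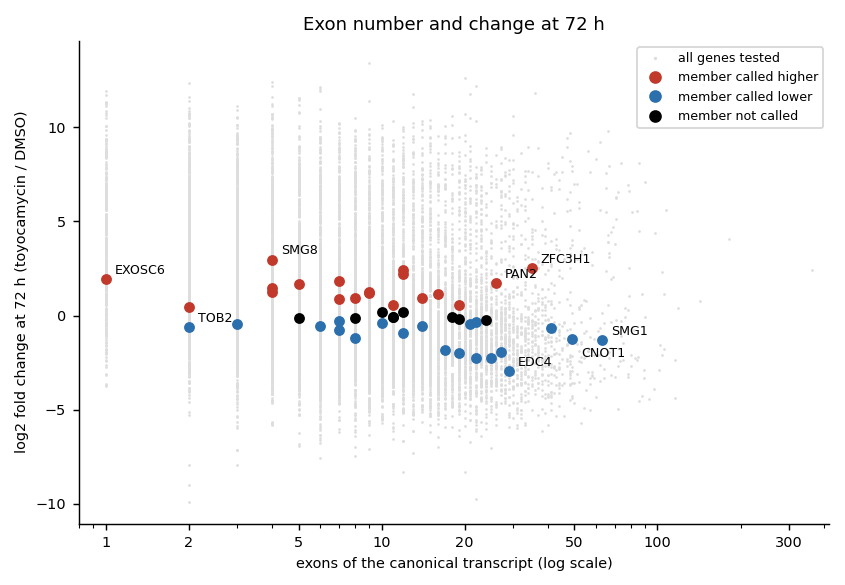
The log2 fold change at 72 h is plotted against the number of exons of the canonical transcript (log axis) for all genes tested (grey) and the 48 decay genes (red higher, blue lower, black not called). The Spearman correlation is -0.395 over the 48 genes, and EXOSC6 with 1 exon and SMG1 with 63 mark the ends of their range.

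Other genes of RNA decay, 71 of which were tested (decapping enhancers, SKI complex and TRAMP genes, BTG and TTP family, Argonaute and TNRC6 genes, exon junction and release factors), were counted in the same way. After 2 h, 0 were higher and 17 lower, where 0.518% and 8.42% of all genes were, and the 17 became 8 without replicate 2 of toyocamycin and 2 with mitochondrial scaling. With mitochondrial scaling 0.6% of all genes were lower at 2 h. After 10 h the counts of these 71 genes were 12 higher and 37 lower, where 20.4% and 24.4% of all genes were. After 72 h they were 32 and 30, where 47% and 41.9% were. Their median log2 fold changes were -0.05, -0.55 and 0.10. At 24 h 15 were higher and 18 lower past 2-fold, where 29.7% and 27.8% of all genes were. At 48 h 18 were higher and 23 lower, where 38.1% and 29.9% were. The 3 largest rises at 72 h among genes with an average log2 CPM of at least 4 were those of NOCT, a circadian relative of the CCR4 deadenylases (5.29 ± 0.18), and of BTG2 and BTG1, which stimulate deadenylation (4.63 ± 0.14 and 3.95 ± 0.13). BTG2 measured 29.0 and 28.5 CPM on DMSO and 5.55 and 5.74 CPM on toyocamycin at 2 h, and 35.5, 29.9 and 33.1 CPM against 838.3, 815.4 and 727.5 CPM at 72 h. It was below its controls at 2 h and above them at 72 h, with no overlap at either time. The 3 largest falls were those of the Argonaute genes AGO4 and AGO1 (-5.36 ± 0.32 and -5.00 ± 0.15), whose proteins carry microRNAs, and of TNKS1BP1, which binds CCR4-NOT (-3.11 ± 0.20). AGO1 measured 169.5, 177.8 and 183.3 CPM on DMSO and 5.41, 4.82 and 5.996 CPM on toyocamycin.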

How the data were processed

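Raw counts of reads per gene, without normalization, were deposited by the authors, who had mapped the reads with STAR 2.7.5a to GRCh38. The table also held 1 column, named as a DMSO library of 10 h, that matched no sample and was not used here. The deposited edgeR comparisons (fold changes and p-values) were not used. Samples were grouped by the treatment and time in the labels, whose protocol names biological triplicates without saying which libraries came from separate cultures, so p-values measure the spread between these libraries, which may be technical.

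Counts were filtered with filterByExpr, scaled with TMM and tested with edgeR 4.0.16 (quasi-likelihood test, form of earlier versions) in R 4.3.3, with Benjamini-Hochberg adjustment over all genes and calls at an adjusted p under 0.1. The 14 libraries without 10 h were fitted together (14491 genes), and all 17 libraries for 10 h (16521 genes), where the single DMSO library is assumed to vary like the other groups. Libraries with the same number deviated together at 2 h (r = 0.307, with the labelled batch shared) and not at 72 h (r from -0.105 to 0.0427). No replicate pair agreed within sampling noise. Paralog ratios added 0.5 counts to each gene. DESeq2 1.42.0, pandas 2.3.3, scipy 1.17.1 and matplotlib 3.10.9 were also used. Symbols, positions and exons came from GENCODE release 44 (GRCh38), and upstream sequences from RefSeq (GRCh38.p14).

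Genes named were every listed gene called at 2 h, the 10 largest rises and falls at 72 h without overlap between treatments, both genes of each paralog pair, and, of the other decay genes, the 3 largest rises and falls at 72 h. The listed genes and the other lists were chosen with earlier results of these data known. Alternatives were DESeq2's size factors and Wald test, total counts, mitochondrial scaling, other filters and thresholds, batch as a term, replicate blocks, other sets of libraries and each library left out. All settings for the other decay genes were chosen after seeing the data.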

Additional observations from a re-analysis of the deposited data

Results flagged for a closer look

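For 35 of the 48 genes the effect of toyocamycin at 72 h differed from that at 2 h, by edgeR's quasi-likelihood test of the difference at an adjusted p under 0.1. That is 72.9% of the 48, where 76.1% of all genes tested differed. The values below are the log2 effect at 72 h minus that at 2 h. Among the genes called lower at 2 h the difference was SMG8 4.65, RBM7 3.70, CNOT4 3.08, DCP1A 1.25, TOB1 1.21, TOB2 0.76 and DCP2 0.75. Among other genes with a higher late effect it was ZFC3H1 2.77, CNOT6 2.37, CNOT7 2.03, EXOSC6 1.95, DCP1B 1.80, CNOT2 1.68, EXOSC3 1.57, PAN2 1.54, EXOSC2 1.26, ZCCHC8 1.22, LSM1 1.19, EDC3 1.19, CNOT9 1.09 and CNOT10 0.67. Among genes with a lower late effect it was EDC4 -2.99, EXOSC10 -2.45, SMG5 -2.11, MTREX -1.94, DIS3L -1.84, PAN3 -1.67, EXOSC1 -1.51, SMG1 -1.33, CNOT1 -1.20, CNOT11 -0.97, EXOSC5 -0.75, CNOT6L -0.66, UPF3A -0.63 and SMG9 -0.51. For RBM7, SMG8, CNOT4 and TOB1 the effect was below 0 at 2 h and above 0 at 72 h, past the test at both times. TOB1 turned negative at 72 h with total counts and with mitochondrial scaling. Of all genes that fell at 2 h, 60.6% were higher at 72 h, or 5.1% of all genes tested. The comparison at 2 h rests on 2 libraries per treatment from 2 batches and that at 72 h on 3 libraries per treatment from 1 batch.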

How the results depend on the processing

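None of the 7 genes named at 2 h changed sign at 2 h, and none of the 20 with the largest changes at 72 h did so at 72 h, under the alternatives run for them. Of these values 404 kept their call. A further 14 kept their sign and lost the call, 10 of them under mitochondrial scaling and 4 for TOB1 and DCP2 without single libraries. At 72 h TOB1 and CNOT8 changed sign with scaling, as given above. TOB1 was also not called at 2 h in the fit of all 17 libraries or of the libraries of 2 h alone. Replicate numbers mark the batch at 2 h, where the replicate block gave 13 lower and 1 higher genes. At 72 h the numbers share nothing, and the block gave 21 higher and 17 lower, where 45.1% and 43.9% of the genes in that fit were. The fit of the other decay genes with a replicate block gave 3 higher at 2 h, where 8.72% of the genes in that fit were.

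Counts over all genes moved with the scaling too. With mitochondrial scaling 1302 of 14491 genes were past 2-fold higher and 10305 lower at 24 h, and 2910 and 8560 at 48 h. With total counts these were 2358 and 6993, then 4444 and 5795. Between DMSO cultures 3.89% of all genes were called higher and 0.248% lower with mitochondrial scaling, and 6.46% and 18.2% with total counts. Counts among the 48 genes, or other decay genes where named, changed as follows, higher then lower. Mitochondrial scaling gave 1 lower at 2 h (0.6% of all genes), 0 higher at 10 h (3.04%) and 6 higher at 72 h (29%). It gave 5 higher for the difference between 72 and 2 h (19.4% of all genes), and 1 and 0 between DMSO cultures. Past 2-fold it gave 0 and 41 at 24 h and 0 and 36 at 48 h. For other decay genes it gave 2 lower at 2 h, 0 higher at 10 h and 9 higher at 72 h, with the same shares of all genes. Total counts gave 0 higher at 10 h (11.3% of all genes), 24 lower for the difference (45.7%), and 2 and 12 between DMSO cultures. Past 2-fold they gave 2 and 28 at 24 h and 6 and 18 at 48 h. Of the other decay genes 21 were higher at 72 h (39% of all genes). DESeq2's size factors gave 6 higher at 10 h (25.8% of all genes), 13 lower at 72 h (37.1%) and 3 lower between DMSO cultures (10.6%). Past 2-fold they gave 5 lower at 48 h (3744 of all 14491 genes). DESeq2's Wald test gave 7 higher at 10 h (28.5% of all genes) and 12 lower at 72 h (36.4%). Past 2-fold it gave 5 lower at 48 h (3745 of all 14491 genes). The filter of 10 counts gave 6 higher at 10 h (28.7% of genes) and 5 lower past 2-fold at 48 h (2995 of 10209 genes). Between DMSO cultures a minimum fold change of 1.2 gave 2 and 2 (6.2% and 6.81% of all genes). There an adjusted p under 0.05 gave 2 lower (7.37%), and all 17 libraries gave 2 lower (5.56%). Among other decay genes at 2 h, all 17 libraries gave 10 lower (4.91% of all genes). The libraries of 2 h alone gave 9 lower among these (6.23%). A 1.5-fold limit gave 16 of the 48 higher at 24 h, and the share of all genes at that limit was not counted.

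Leaving out single libraries gave 2 to 6 higher at 10 h, 2 to 6 and 2 to 8 between DMSO cultures, 0 to 1 and 8 to 15 for other decay genes at 2 h, and a median of the 48 genes at 2 h of -0.19 to -0.073. That median was -0.090 with DESeq2's size factors, -0.18 with total counts and -0.26 with mitochondrial scaling. With total counts and mitochondrial scaling it was -1.50 and -2.07 at 10 h, -1.25 and -2.51 at 24 h, -0.60 and -1.83 at 48 h, and -0.71 and -1.20 at 72 h, where DESeq2's size factors gave 0.22. The causes were not tested. With 2 libraries per treatment at 2 h and 1 DMSO library at 10 h, small changes could not be resolved.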
